A study of Mus musculus with 7 samples.

Results

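Long noncoding RNAs (lncRNAs) of more than a trace level were described in CD8 T cells sorted from MCA205 tumours of mice that lack the nucleoside transporter ENT1 and of wild-type mice. The set held 98 genes. They were chosen by their TPM, a measured value, and are the autosomal rows of the deposited table that carry an lncRNA category and no protein-coding one and that reach at least 10 TPM in at least 3 of the 7 samples, without Gas5 and the Snhg genes. They were drawn from 9189 autosomal lncRNA rows without those names, in a table of 55357 genes. The unit TPM counts transcripts with a correction for their length, out of a fixed sum per library.

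The groups were 4 ENT1KO samples (Slc29a1-/- mice, replicates 11, 12, 14 and 15) and 3 WT samples (C57Bl/6 mice, replicates 1, 2 and 3). Both kinds of mice carried subcutaneous MCA205 tumours, a transplantable mouse fibrosarcoma line. Tumours were taken after 14 days and live CD45+ CD8+ cells were sorted, at least 30000 per condition. The labels give no age of the mice and name no tissue to which the deletion is restricted. Nor do they state that the samples came from different animals, so the p-values describe sample-to-sample spread, which may be technical.

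lncRNAs are transcribed and spliced much like messenger RNAs but encode no long protein. Some act where they are made, on the gene next to them, and some serve as scaffolds of nuclear bodies, as sponges or decay triggers for microRNAs, or as hosts whose introns or exons release microRNAs and small nucleolar RNAs (snoRNAs). In T cells, many lie beside genes of lymphocyte identity and are transcribed in the same cells as those genes.

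The libraries differed in more than genotype. Slc29a1, which encodes ENT1, stood at 13.2 to 17.6 TPM in ENT1KO and 49.7 to 58.9 TPM in WT libraries, a log2 difference of -1.78 (limma adjusted p = 0.00121). The summed TPM of 14 CD8 T cell identity genes (Cd8a, Cd3e, Trac and others) was 9952, 11332, 9219 and 10056 in ENT1KO replicates 11, 12, 14 and 15, and 4515, 2891 and 6990 in WT replicates 1, 2 and 3. The summed TPM of 20 fibroblast and tumour genes (collagens, Postn, Fn1 and others) was 69.8, 181, 885 and 7.16 in the ENT1KO libraries, and 6320, 7953 and 4209 in the WT libraries. A list of 20 macrophage and monocyte genes summed to 516 to 1885 TPM in ENT1KO and 4690 to 7165 TPM in WT libraries. Genes of the sorted cell type were high in each library, transcripts that define other cells were high in the WT libraries, and 19 of 19 tested fibroblast and tumour genes and 18 of 19 tested macrophage genes fell in ENT1KO. Falls were also called for 5 of 11 dendritic cell genes (1 rose), 8 of 8 neutrophil and mast cell genes, 6 of 6 erythroid and platelet genes, 5 of 6 endothelial genes (1 rose) and 4 of 8 NK cell genes (1 rose), while 3 of 7 CD4 and regulatory T cell genes rose (2 fell) and 2 of 2 tested B cell genes rose. In bulk samples, fewer cells of a type and less RNA per cell cannot be told apart. Genotype and the level of the CD8 identity, fibroblast and tumour, and macrophage lists cannot be told apart either, since their sums do not overlap between ENT1KO and WT. The sums of the endothelial, B cell and NK cell lists do overlap. Depth, recovered from the step size of each normalized-count column, was near equal at 18624318 to 19660792 reads per library.

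Most of the abundant lncRNAs were higher in ENT1KO as a share of all transcripts. Relative to the CD8 T cell identity genes, a scale that moves all genes down together, their median was -0.38 and that of all genes tested was -1.01. Of the 98, 68 were called higher, where 27.5% of all genes tested were, and 7 were called lower, where 23.1% of all genes were. The other 23 did not pass. A call means an adjusted p under 0.05 in limma-trend on log2(TPM + 1), fitted over 13798 genes, and all differences below are ENT1KO minus WT on that scale. Of the 98, 37 passed with a rise of more than 2-fold (6.12% of all genes) and 5 with a fall of more than 2-fold (14.7% of all genes). The median difference was 0.78 over the 98 genes, with quartiles of 0.33 and 1.14, and 0.145 over all genes tested. Among 8119 protein-coding autosomal genes that meet the same 10 TPM rule, 34.7% were higher and 19.2% lower, with a median of 0.187. Among 481 tested autosomal lncRNAs below the 10 TPM rule, 28.9% were higher and 10.8% lower, with a median of 0.44.

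The TPM rule itself weighs on these counts, since 50 of the 98 genes met it through at least 3 ENT1KO libraries without all 3 WT libraries, and 26 of them reached 10 TPM in no WT library. Only 2 met it through the 3 WT libraries without 3 ENT1KO ones. Of the 41 genes at 10 TPM or more in all 7 libraries, 24 were higher, 5 lower and 12 not called. Of all genes tested, 27.5% were higher and 23.1% lower. Each ENT1KO library lay above each WT library for 64 of the 98 (30.3% of all genes tested) and below for 8 (24.9% of all genes tested), and the ranges met for 26. Without WT replicate 2, which had the lowest CD8 list level and the highest fibroblast and tumour level, 45 were called higher, and without WT replicate 2 and ENT1KO replicate 14 together 39 were. Leaving out each library in turn kept 44 of the 68 rises and 6 of the 7 falls. Calls over all genes dropped too, to 2232 to 3684 higher and 1975 to 3142 lower, from 3800 and 3182 with all 7 libraries. The count over all genes without both libraries is not given here. With the fibroblast and tumour list level as a covariate no member passed in limma, and 7 rose and 3 fell at an unadjusted p under 0.05. Of all 13798 genes tested, 1140 had such a p in either direction. With the macrophage list level none passed either, and 13 rose and 3 fell at an unadjusted p under 0.05, as did 1335 of all 13798 genes in either direction.

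**Figure D1:**
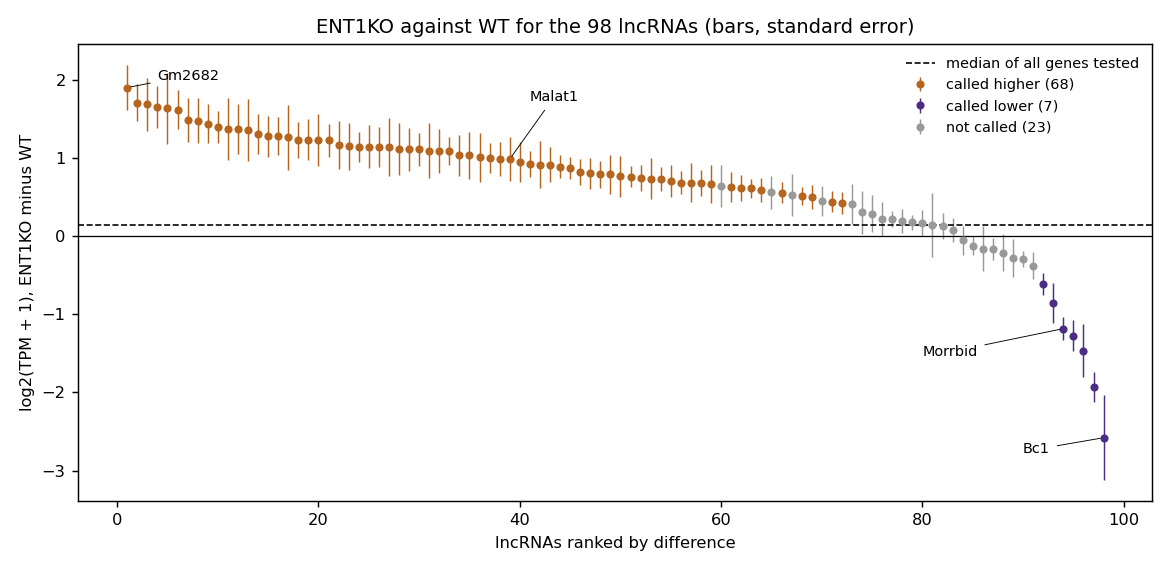
Difference of each of the 98 lncRNAs in log2(TPM + 1), ENT1KO minus WT (y axis), ranked from the most positive to the most negative (x axis, rank). Points are fitted differences, bars are standard errors, colours give the limma call, and the dashed line is the median of all genes tested (0.145). The 68 genes called higher run up to 1.90 (Gm2682) and the 7 called lower run down to -2.58 (Bc1). Relative to the CD8 T cell identity list, which moves all genes down together, the median of the 98 is -0.38 and that of all genes tested is -1.01.

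The threshold of the rule is close on both sides. Just inside it stood 4933412E12Rik, 5830428M24Rik and Rps18-ps4, with 10.2, 10.2 and 10.3 TPM in the library that decides (rank 3 of 7). Just outside stood E130307A14Rik, Gm35037 and Gm36738 at 9.93, 9.86 and 9.77 TPM. The 98 genes lie on 19 autosomes, 74 carry only a model number or clone name, and their mean levels run from 7.85 to 990 TPM with a median of 17.5 TPM. 14 average 100 TPM or more, and the 5 most abundant held 46.8% of the summed TPM of the set in ENT1KO and 56.1% in WT libraries.

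The most abundant of them with many reads was AW112010, an RNA known to be induced by interferon and microbial products in immune cells (chromosome 19, 11024976 to 11033172, minus strand, GRCm39, as for all positions except those of printed sequences). Its TPM values were 1140.3, 1543, 1076 and 1048 in the 4 ENT1KO libraries, in the order of replicates 11, 12, 14 and 15, and 652, 423 and 775 in the 3 WT libraries, and that order is kept from here on. Each ENT1KO library was above the highest WT library, which was replicate 3. The means were 1202 ± 231 TPM in ENT1KO (SD, n = 4) and 617 ± 179 TPM in WT (SD, n = 3), a difference of 0.99 (standard error 0.22, limma adjusted p = 0.00829). The authors' deposited table gives AW112010 a log2 fold change of 0.83 (adjusted p = 0.000778).

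Malat1, an abundant nuclear RNA that collects at nuclear speckles, the storage sites of splicing factors, was measured differently by the deposited scales (chromosome 19, 5845718 to 5852700, minus strand). On TPM, Malat1 stood at 657, 435, 351 and 422 in the ENT1KO libraries and 333, 159 and 225 in the WT libraries, with no overlap, a difference of 0.99 (standard error 0.28, limma adjusted p = 0.0209). On the authors' normalized counts, Malat1 had 41037, 27952, 26908 and 26257 in the ENT1KO libraries and 27815, 19946 and 25157 in the WT libraries. There the ranges met, since WT replicate 1 lay above ENT1KO replicates 14 and 15, and the difference was 0.32 (limma adjusted p = 0.214). In the authors' deposited table the adjusted p was 0.212. The call on TPM was lost without WT replicate 2 (limma adjusted p = 0.0783) or WT replicate 3 (limma adjusted p = 0.0539).

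Neat1, the scaffold RNA of paraspeckles, another kind of nuclear body, lies next to Malat1 on chromosome 19 (5874736 to 5895506, minus strand). Neat1 stood at 161, 151, 148 and 104 TPM in ENT1KO and 124, 75.3 and 87.9 TPM in WT libraries. ENT1KO replicate 15 lay below WT replicate 1, and the difference of 0.56 did not pass (standard error 0.21, limma adjusted p = 0.0522). It passed without ENT1KO replicate 15 (limma adjusted p = 0.0213) or without WT replicate 1 (limma adjusted p = 0.0227).

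Of 14 nuclear speckle proteins, 11 rose, where 27.5% of all genes did, and the other 3 did not pass. Their median difference of 0.46 is below that of the CD8 identity list (1.14). Relative to that list 7 of the 14 were called lower, where 64.5% of all genes were. Among them, Sf3b1, a core splicing factor, averaged 313 ± 54.1 TPM in ENT1KO and 144 ± 36.2 TPM in WT (difference 1.12, limma adjusted p = 0.00305). Srsf5, a serine and arginine rich splicing factor, averaged 602 ± 52.7 TPM in ENT1KO and 339 ± 69 TPM in WT (difference 0.85, limma adjusted p = 0.00365). Of 14 paraspeckle proteins, 6 rose, where 27.5% of all genes did, and the other 8 did not pass, with a median of 0.21. Relative to the CD8 identity list 11 of the 14 were called lower, where 64.5% of all genes were. Leaving out 1 library gave 2 to 5 rises, with 3 without ENT1KO replicate 11 or 14 and 2 without WT replicate 2. Taf15, an RNA-binding protein, averaged 122.6 ± 7.23 TPM in ENT1KO and 75.1 ± 11.7 TPM in WT (difference 0.71, limma adjusted p = 0.00324). The defining paraspeckle protein Nono averaged 263 ± 8.78 TPM in ENT1KO and 268 ± 4.67 TPM in WT, and its difference of -0.02 did not pass.

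**Figure D2:**
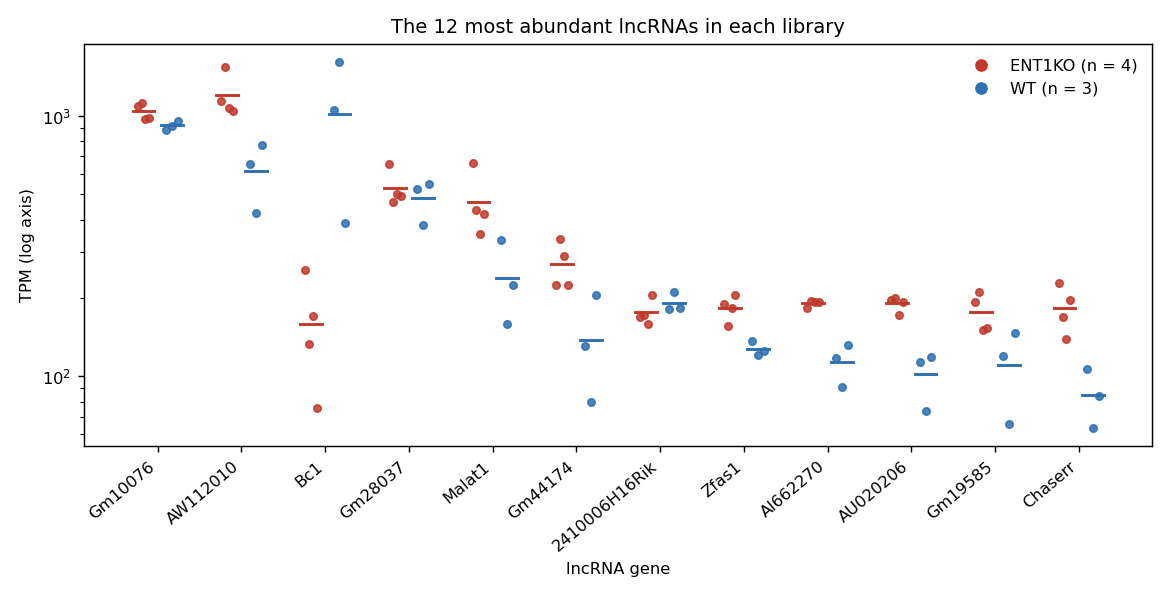
TPM of the 12 most abundant lncRNAs (x axis) in each library, on a log axis (y axis). Points are libraries, ENT1KO (n = 4) left of WT (n = 3) for each gene, and short lines are group means. AW112010, Malat1 and Chaserr show ENT1KO libraries above the WT ones, Bc1 shows them below, and Gm10076, Gm28037 and 2410006H16Rik lie close together.

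Among RNAs known to act on a neighbouring gene, Chaserr was higher. Chaserr restrains its neighbour Chd2, a chromatin remodeller, on chromosome 7 (73189549 to 73208143, minus strand). Chaserr stood at 229, 169, 139 and 196 TPM in ENT1KO and 107, 63.3 and 84 TPM in WT libraries, with no overlap (difference 1.11, standard error 0.22, limma adjusted p = 0.00457). Chd2 was higher as well, at 69.8 ± 14.3 TPM in ENT1KO and 37.0 ± 10.8 TPM in WT (difference 0.92, limma adjusted p = 0.0134). The spans of both genes overlap on the same strand, so reads in the shared stretch cannot be assigned with certainty.

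Lockd, a transcript downstream of the cell cycle inhibitor gene Cdkn1b (chromosome 6, 134906055 to 134933761, plus strand), stood at 13.9, 14.9, 16.2 and 17 TPM in ENT1KO and 13.2, 10.1 and 10.2 TPM in WT libraries. Its rise of 0.44 passed (limma adjusted p = 0.0267) but was lost without any 1 of 5 libraries, ENT1KO replicates 12, 14 and 15 and WT replicates 2 and 3 (limma adjusted p of 0.0519 to 0.0898). Cdkn1b averaged 94.9 ± 19.3 TPM in ENT1KO and 54.0 ± 11.9 TPM in WT (difference 0.80, limma adjusted p = 0.0122). Peg13, an imprinted RNA inside an intron of Trappc9 on chromosome 15, stood at 13.1, 16.5, 11.7 and 13.6 TPM in ENT1KO and 7.42, 7.09 and 9.09 TPM in WT libraries (difference 0.73, limma adjusted p = 0.00597). Trappc9 itself averaged 12.8 ± 1.27 TPM in ENT1KO and 15.4 ± 1.19 TPM in WT, a difference of -0.26 that did not pass. Of 16 genes of an imprinted growth network, 5 were abundant enough to test, and 3 fell, where 23.1% of all genes did. Mest averaged 0.91 ± 0.63 TPM in ENT1KO and 8.46 ± 2.24 TPM in WT (difference -2.34, limma adjusted p = 0.0015). Sgce averaged 1.13 ± 1.35 TPM in ENT1KO and 14.2 ± 5.54 TPM in WT (difference -2.95, limma adjusted p = 0.00216). Both were highest in WT replicate 2, which had the highest fibroblast and tumour list level, and the part of those transcripts in these falls was not tested.

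Oip5os1, also called Cyrano, which drives decay of the microRNA miR-7, stood at 56.6, 61.5, 51.6 and 49.7 TPM in ENT1KO and 44.1, 27.1 and 36.4 TPM in WT libraries, with no overlap (difference 0.62, limma adjusted p = 0.0153). Norad, which binds Pumilio proteins in the cytoplasm, stood at 79.4, 80.6, 72.8 and 73.5 TPM in ENT1KO and 74.4, 60.8 and 62.8 TPM in WT libraries. Its ranges met and its difference of 0.22 did not pass (limma adjusted p = 0.113), though it passed without WT replicate 1 (0.30, limma adjusted p = 0.0498). Norad and Neat1 were chosen for naming after their values were seen.

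Several of the lncRNAs that rose lie beside genes of lymphocyte identity. Of 61 lncRNAs called higher whose nearest protein-coding gene was tested, 33 had a neighbour that was called higher and 7 one that was called lower. The neighbour was called higher for 3 of 5 lncRNAs called lower, and for 5 of 21 not called (4 had a neighbour called lower), beside 34.7% higher and 19.2% lower among protein-coding genes at 10 TPM or more in 3 samples. Whether these shares differ was not tested. Gm44174 lies 143 bp from Cd8a, which encodes the alpha chain of the CD8 coreceptor, on chromosome 6 (71330019 to 71350268, plus strand). Gm44174 stood at 225, 336, 290.4 and 225 TPM in ENT1KO and 131, 79.9 and 205 TPM in WT libraries. The groups did not overlap, with WT replicate 3 close to the lower ENT1KO libraries (difference 1.03, standard error 0.30, limma adjusted p = 0.0223). The call was lost without ENT1KO replicate 12, WT replicate 1 or WT replicate 2 (limma adjusted p of 0.0553 to 0.0607). Cd8a averaged 1047 ± 188 TPM in ENT1KO and 501 ± 187 TPM in WT, a difference of 1.12 (limma adjusted p = 0.00937). Both genes were lowest in WT replicate 2 and highest in ENT1KO replicate 12.

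The Gimap cluster on chromosome 6 encodes GTPases of lymphocyte survival and holds a pair of the lncRNAs. Gimap1os, antisense to Gimap1 (48715280 to 48718378, minus strand), stood at 29.5, 31.0, 28.5 and 33.8 TPM in ENT1KO and 13.2, 7.45 and 19.3 TPM in WT libraries (difference 1.24, limma adjusted p = 0.00644). 4833403J16Rik, 1128 bp from Gimap5, averaged 24.1 ± 2.74 TPM in ENT1KO and 8.49 ± 3.83 TPM in WT (difference 1.49, limma adjusted p = 0.0042). Gimap1 and Gimap5 rose by 1.29 and 1.27 (limma adjusted p of 0.00656 and 0.00304). The differences of Gimap1os and Gimap1 were thus close. Reads of genes that overlap on opposite strands are kept apart only if the counting used strand, as the name given to the deposited TPM table states.

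Further pairs lie at or nearest to genes of T cell signalling and interferon response and were named after their values were seen. A430093F15Rik lies 1945 bp from Cd5, a dampener of T cell receptor signals, and rose by 1.01 (limma adjusted p = 0.0276), while Cd5 rose by 1.49. That call was lost without ENT1KO replicate 11, ENT1KO replicate 12 or WT replicate 2 (limma adjusted p of 0.0659 to 0.0833). Gm33104, whose nearest protein-coding gene is the interferon gamma receptor gene Ifngr1 at 84638 bp, averaged 57.5 ± 4.91 TPM in ENT1KO and 21.7 ± 8.87 TPM in WT. Its difference was 1.44 (limma adjusted p = 0.00338), and Ifngr1 rose by 1.16. 9330175E14Rik, antisense to Nlrc5, the transactivator of MHC class I genes, averaged 18.1 ± 1.75 TPM in ENT1KO and 7.38 ± 2.57 TPM in WT (difference 1.23, limma adjusted p = 0.00304), and Nlrc5 rose by 1.32.

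Gm20559 lies on chromosome 6 (3333194 to 3346128, minus strand), 26129 bp from its nearest protein-coding gene, the interferon-induced Samd9l. Gm20559 stood at 99.1, 68, 74.7 and 59 TPM in ENT1KO and 29.3, 15.4 and 23.1 TPM in WT libraries. The groups were well apart (difference 1.71, standard error 0.24, limma adjusted p = 0.00163), and Samd9l rose by 1.71 too. 2010016I18Rik, antisense to Dennd2d on chromosome 3 (106389298 to 106393229, minus strand), stood at 57.7, 43.7, 42.8 and 34.1 TPM in ENT1KO and 20.6, 6.76 and 15.1 TPM in WT libraries (difference 1.69, limma adjusted p = 0.00523), and Dennd2d rose by 1.49. The largest rise of the set was that of Gm2682, an unnamed model on chromosome 15 (59992389 to 60059257, minus strand) whose nearest protein-coding gene is 103927 bp away. Gm2682 stood at 104, 62.9, 82.4 and 106 TPM in ENT1KO and 23.6, 14.2 and 33.8 TPM in WT libraries, so its lowest ENT1KO library was still above its highest WT one (difference 1.90, standard error 0.29, limma adjusted p = 0.00218).

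Some lncRNAs that rose lie beside genes that fell, and these pairs apart from Epb41l4aos were named after their values were seen. BE692007 lies antisense to Ms4a6c, a gene of monocytes and macrophages on chromosome 19. BE692007 stood at 49.6, 37.7, 34.3 and 27.2 TPM in ENT1KO and 13.8, 6.85 and 13.2 TPM in WT libraries, a rise of 1.66 (limma adjusted p = 0.00253). Ms4a6c stood at 16.4, 14.7, 29.6 and 8.73 TPM in ENT1KO and 75.3, 106 and 65.4 TPM in WT libraries, a difference of -2.27 (limma adjusted p = 0.0024). In the same cluster Gm28935 rose by 1.17 (limma adjusted p = 0.0156, and 0.0575 without WT replicate 2), while its nearest gene Ms4a4a fell by 1.65 (limma adjusted p = 0.0183, 0.0557 without WT replicate 1 and 0.0826 without WT replicate 2). Epb41l4aos on chromosome 18 averaged 49 ± 6.31 TPM in ENT1KO and 31.5 ± 1.59 TPM in WT (difference 0.61, limma adjusted p = 0.00447). Its neighbour Epb41l4a, a cytoskeletal protein gene 341 bp away, averaged 0.34 ± 0.203 TPM in ENT1KO and 4.55 ± 0.324 TPM in WT (difference -2.06, limma adjusted p = 0.00121).

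Further lncRNAs were higher too, the first 3 of them among the 12 most abundant. AI662270 on chromosome 11 stood at 183, 195, 193 and 194 TPM in ENT1KO and 117, 91.2 and 133 TPM in WT libraries, and ENT1KO replicate 11 stood apart from its group by a small step (difference 0.76, limma adjusted p = 0.00313). AU020206, 14429 bp from Akap13 on chromosome 7, stood at 197, 200.1, 173 and 193 TPM in ENT1KO and 113, 73.9 and 119 TPM in WT libraries (difference 0.92, limma adjusted p = 0.00372). Gm19585 is a long locus on chromosome 17 whose nearest protein-coding gene, the chromatin organizer Satb1, is 153125 bp away. Gm19585 stood at 193, 211, 151 and 153 TPM in ENT1KO and 120.1, 65.4 and 146 TPM in WT libraries. Its rise of 0.74 was at the edge of the threshold (limma adjusted p = 0.0482) and was lost when any library but WT replicate 3 was left out (limma adjusted p of 0.0538 to 0.114). Mirt1 averaged 14.7 ± 5.01 TPM in ENT1KO and 5.09 ± 2.02 TPM in WT (difference 1.37, limma adjusted p = 0.00934), and Rab10os, antisense to Rab10, averaged 29.7 ± 2.59 TPM in ENT1KO and 17.5 ± 4.35 TPM in WT (difference 0.75, limma adjusted p = 0.00737).

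3 of the lncRNAs contain microRNA genes on their own strand. The mature sequences, from RefSeq, are shown because the seed (bases 2 to 8, in capitals) sets target choice.
miR-142a-3p (Mir142hg): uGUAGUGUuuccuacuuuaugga
miR-142a-5p (Mir142hg): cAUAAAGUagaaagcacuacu
miR-15a-5p (Dleu2): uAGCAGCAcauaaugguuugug
miR-16-5p (Dleu2): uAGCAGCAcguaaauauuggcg
miR-22-3p (Mir22hg): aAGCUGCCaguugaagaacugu
The pair from Dleu2 share the seed AGCAGCA, and the other 3 have seeds of their own.

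Mir142hg, the host of miR-142, a microRNA of blood cells (chromosome 11, 87646403 to 87648096, plus strand), was higher in ENT1KO. Mir142hg stood at 17.8, 23.7, 14.1 and 13.5 TPM in ENT1KO and 8.95, 4.96 and 5.73 TPM in WT libraries, with no overlap (difference 1.28, standard error 0.24, limma adjusted p = 0.00426). Dleu2, which hosts miR-15a and miR-16-1 and is named for its loss in leukaemia (chromosome 14, 61840288 to 61919822, minus strand), stood at 13, 11, 11.9 and 11.1 TPM in ENT1KO and 7.47, 9.12 and 6.04 TPM in WT libraries. Its difference of 0.59 passed on TPM (limma adjusted p = 0.0147) and was 0.21 on the normalized counts (limma adjusted p = 0.363). Mir22hg, the host of miR-22 (chromosome 11, 75352365 to 75357502, plus strand), stood at 17, 21.7, 15.1 and 9.99 TPM in ENT1KO and 20.8, 18.3 and 15.3 TPM in WT libraries. Its ranges met and its difference of -0.21 did not pass (limma adjusted p = 0.473). These values are of the host transcripts, and the mature microRNAs were not measured.

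Of 11 tested genes of microRNA processing, 4 rose and 2 fell, with a median of 0.35, and relative to the CD8 identity list 6 were called lower. These counts are near the shares of all genes, which are 27.5% higher, 23.1% lower and 64.5% lower relative to that list. Tnrc6a, a scaffold of silencing complexes, averaged 45.1 ± 5.3 TPM in ENT1KO and 22.2 ± 3.83 TPM in WT (difference 0.99, limma adjusted p = 0.00173). Prkra, a partner of Dicer, averaged 5.63 ± 1.47 TPM in ENT1KO and 15.6 ± 3.63 TPM in WT (difference -1.33, limma adjusted p = 0.00255). Dicer1, Tnrc6b and Ago1 were the other rises, and Drosha, the nuclear processing enzyme, was the other fall (difference -0.68, limma adjusted p = 0.00324).

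6 of the lncRNAs hold 11 snoRNA genes on their own strand, small RNAs that guide chemical modification of ribosomal RNA. Among these hosts 4 were higher, 1 lower and 1 not called. Of all genes tested, 27.5% were higher and 23.1% lower, and of the whole lncRNA set 68 were higher, 7 lower and 23 not called. Whether the hosts differ from the rest of the set was not tested. Zfas1, which holds Snord12 on chromosome 2 (166904854 to 166907782, plus strand), stood at 189, 157, 184 and 206 TPM in ENT1KO and 137, 121 and 125 TPM in WT libraries (difference 0.52, standard error 0.12, limma adjusted p = 0.00826). 2410006H16Rik, which holds Snord49a, Snord49b and Snord65 on chromosome 11, stood at 169, 173, 159 and 205 TPM in ENT1KO and 181, 211 and 183 TPM in WT libraries, overlapping ranges with a difference of -0.12 (limma adjusted p = 0.418). Rab26os, which holds Snord60, averaged 16.2 ± 4.26 TPM in ENT1KO and 8.37 ± 4.01 TPM in WT, and its rise of 0.92 (limma adjusted p = 0.0338) was lost without any 1 of ENT1KO replicates 11, 14 and 15 and WT replicates 2 and 3 (limma adjusted p of 0.0676 to 0.129). AA465934, which holds Snord7, rose by 1.09 (limma adjusted p = 0.0024), and Epb41l4aos was the other host that rose.

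The host that fell was 1110038B12Rik, which holds Snord52 on chromosome 17 (35169214 to 35171447, minus strand). 1110038B12Rik stood at 48.7, 44.2, 65.9 and 45.5 TPM in ENT1KO and 132, 151 and 93.3 TPM in WT libraries, with no overlap (difference -1.27, standard error 0.20, limma adjusted p = 0.00216). The ENT1KO library nearest to WT was replicate 14, the one with the highest fibroblast and tumour list level of its group, and the highest WT library was replicate 2, which had the highest level of all 7. ENT1KO replicates 11, 12 and 15, at 48.7, 44.2 and 45.5 TPM, did not follow the order of their list levels of 69.8, 181 and 7.16 TPM. The part of those transcripts in the fall was not tested.

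The best known of the 7 lncRNAs called lower was Morrbid, an RNA that represses the pro-apoptotic gene Bcl2l11 beside it and so lengthens the life of short-lived myeloid cells (chromosome 2, 128020239 to 128344685, minus strand). Morrbid stood at 8.52, 6.8, 6.54 and 7.56 TPM in ENT1KO and 15.3, 20.3 and 18.4 TPM in WT libraries. No ENT1KO library came near the lowest WT one (difference -1.18, standard error 0.15, limma adjusted p = 0.00132), and the authors' deposited table gives a log2 fold change of -1.49 (adjusted p = 2.01e-12). Bcl2l11 stood at 128, 119, 105 and 65.3 TPM in ENT1KO and 63.8, 47.8 and 106 TPM in WT libraries. The ranges of Bcl2l11 overlapped and its difference of 0.56 did not pass (limma adjusted p = 0.164), though it passed without WT replicate 3 (limma adjusted p = 0.0381). The macrophage list, which was also lower in ENT1KO, summed to 890, 1056, 1885 and 516 TPM in ENT1KO and 5142, 7165 and 4690 TPM in WT libraries. Within ENT1KO, replicate 14 had the highest list level and the lowest Morrbid, and within WT, replicate 2 was highest in both. The part of the list in the fall of Morrbid was not tested.

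The start regions of Morrbid and AW112010 are shown because one is a leading fall and the other the most abundant rise. Each is 300 bases, from 250 before to 50 after the start, from RefSeq on the build GRCm38.p6. Motif matches are in capitals. On both strands, 5 motifs were searched: an interferon response element (GAAA, any 2 bases, GAAA), the ETS core (CCGGAAG), AP-1 (TGANTCA), RUNX (TGTGGTT) and the E-box of USF and MYC (CACGTG).
Morrbid, chr2:128429302-128429601, minus strand: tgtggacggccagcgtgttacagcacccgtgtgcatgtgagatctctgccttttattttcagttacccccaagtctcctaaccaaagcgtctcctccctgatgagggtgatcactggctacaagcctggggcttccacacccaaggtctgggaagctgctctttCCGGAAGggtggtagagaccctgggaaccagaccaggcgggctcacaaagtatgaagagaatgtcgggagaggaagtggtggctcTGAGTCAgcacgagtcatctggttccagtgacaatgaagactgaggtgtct
AW112010, chr19:11050517-11050816, minus strand: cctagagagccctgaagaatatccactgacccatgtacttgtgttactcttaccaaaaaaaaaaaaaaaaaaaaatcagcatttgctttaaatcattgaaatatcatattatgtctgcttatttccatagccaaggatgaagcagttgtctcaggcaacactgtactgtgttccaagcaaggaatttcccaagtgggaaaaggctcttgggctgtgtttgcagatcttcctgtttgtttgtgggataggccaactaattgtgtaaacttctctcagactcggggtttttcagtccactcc
The Morrbid window held an ETS core from base -86 and an AP-1 match from base -1, and none of these letters were found in the AW112010 window. Promoters were at hand for 57 of the 98 genes. Of the 44 among them called higher, 7 held the ETS core (8.86% of all 32851 promoters of the same length), 8 the E-box (7.15% of all), 5 the RUNX motif (5.27% of all), 2 the AP-1 motif (7.81% of all) and 1 the interferon response element (3.44% of all). A gene counts here if any of its promoters holds the motif, while the percentages are of single promoters, so they are not like measures. A match is a description of the letters and shows no binding.

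Bc1, a short brain RNA made by RNA polymerase III, had the largest fall on TPM. Bc1 stood at 255, 133, 169.9 and 75.6 TPM in ENT1KO and 1052, 1607 and 389 TPM in WT libraries (difference -2.58, standard error 0.54, limma adjusted p = 0.00681). Its normalized counts were between 0 and 4.1 in each of the 7 libraries, so on that scale almost no reads were assigned to it, and its difference there was -0.42 (limma adjusted p = 0.667). Gm42031 on chromosome 8 stood at 17.3, 17.9, 19.8 and 10.6 TPM in ENT1KO and 58.5, 66 and 66.7 TPM in WT libraries (difference -1.93, limma adjusted p = 0.00121). In normalized counts Gm42031 was listed at 0 in each ENT1KO library and at 58.6, 228 and 236 in the WT libraries. The scales thus share the direction and differ in what is left in ENT1KO.

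The remaining falls were of unnamed models. Gm49980 averaged 10.8 ± 4.93 TPM in ENT1KO and 29.3 ± 4.13 TPM in WT (difference -1.46, limma adjusted p = 0.00959). Gm46620 averaged 19.6 ± 2.14 TPM in ENT1KO and 30.7 ± 4.79 TPM in WT (difference -0.62, limma adjusted p = 0.00879). Gm43305 averaged 54.2 ± 19.1 TPM in ENT1KO and 95.0 ± 11.9 TPM in WT (difference -0.86, limma adjusted p = 0.0233). The call for Gm43305 was lost without ENT1KO replicate 15, WT replicate 1 or WT replicate 2 (limma adjusted p of 0.0514 to 0.08), and on normalized counts its difference was -0.22 (limma adjusted p = 0.683).

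The 23 genes not called had differences between -0.38 and 0.64, and 4 of them had an unadjusted limma p under 0.05. They include Gm10076, the most abundant gene of the set on TPM, at 1091, 1121, 975 and 982 TPM in ENT1KO and 883, 917 and 961 TPM in WT libraries. The ENT1KO libraries were above each WT one by a small margin, and the difference of 0.18 did not pass (limma adjusted p = 0.152). Gm28037 stood at 657, 468, 503 and 495 TPM in ENT1KO and 524, 382 and 550.1 TPM in WT libraries (difference 0.13, limma adjusted p = 0.526). It spans the ribosomal protein gene Rpl24 on the same strand, its normalized count was 0 in each library, and both values are uncertain for that reason. Pvt1, named after its values were seen, lies beside the proto-oncogene Myc. Pvt1 averaged 15.3 ± 0.725 TPM in ENT1KO and 14.6 ± 3.18 TPM in WT (difference 0.09, limma adjusted p = 0.659), and Myc averaged 55.9 ± 19.8 TPM in ENT1KO and 43.0 ± 4.29 TPM in WT (difference 0.29, limma adjusted p = 0.411). Without ENT1KO replicate 11 the difference of Myc was 0.56 and passed (limma adjusted p = 0.0303).

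The relation of the lncRNAs to T cell and tumour genes was then set out library by library. The summed TPM of the 68 called higher was 5058, 5014, 4115 and 4244 in ENT1KO and 2623, 1628 and 2716 in WT libraries. Their ratio of means was 1.98, and they were picked for their rise. Summed over the whole lncRNA set, called or not, the means were 7263 TPM in ENT1KO and 5838 TPM in WT, a ratio of 1.24. The CD8 T cell identity list, of which 14 of 14 genes rose, had a ratio of 2.11 (exact two-sided permutation p = 0.0286, the smallest that 4 against 3 samples allow). Of the 68 lncRNAs called higher, 62 had their lowest WT value in replicate 2, where the identity list was lowest as well. The same count was not made over all genes called higher, so whether this is particular to these lncRNAs was not tested. The summed TPM of the 7 called lower, picked for their fall, was 445, 264, 352 and 211 in ENT1KO and 1432, 1985 and 718 in WT libraries, a ratio of 0.231. Bc1 alone made up 255, 133, 169.9 and 75.6 TPM of the ENT1KO sums and 1052, 1607 and 389 TPM of the WT sums. The ratio thus rests largely on Bc1, to which almost no reads were assigned in normalized counts. The libraries fall into separate groups on the lists and on the lncRNAs, so no correlation is given.

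**Figure D3:**
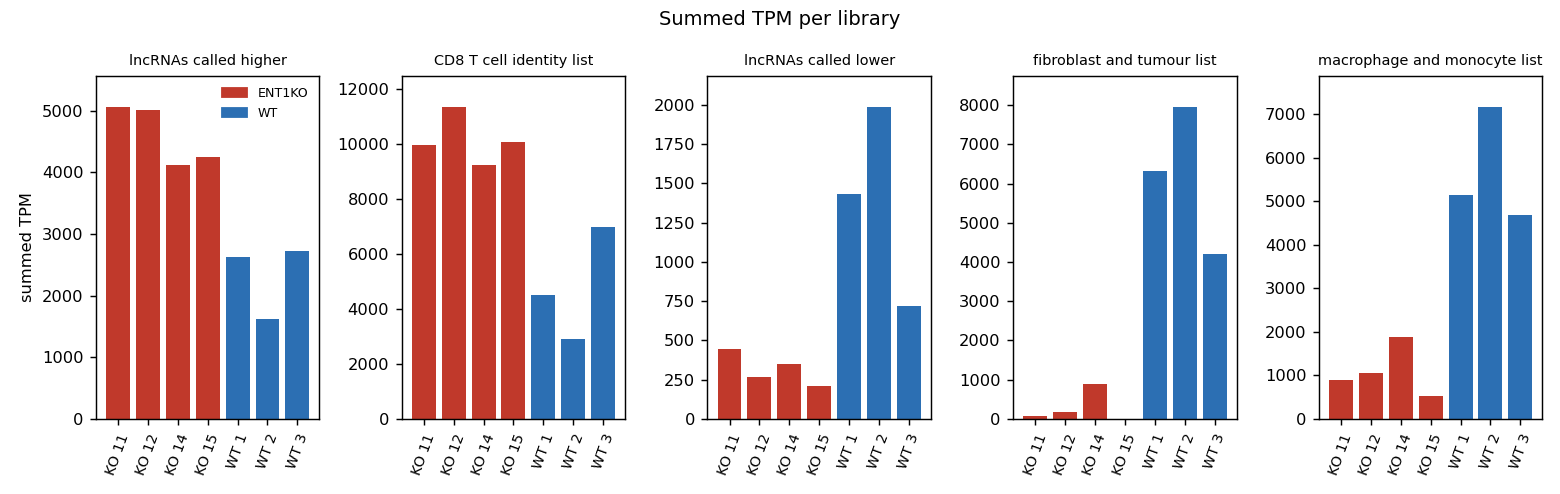
Summed TPM per library (y axis, from 0) of the lncRNAs called higher, the CD8 T cell identity list, the lncRNAs called lower, and the fibroblast and tumour and macrophage and monocyte lists, with ENT1KO libraries (KO, left) and WT libraries (right). The first pair of panels have ENT1KO bars above the WT bars, and the other 3 have them below. In the lncRNA panels the direction follows from the way those genes were picked, and Bc1 is the largest part of those called lower.

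Set against the CD8 identity list, few lncRNAs stayed higher. After the mean log2 level of that list was subtracted in each library, the median difference of the 98 was -0.38, that of the 68 called higher was -0.12 and that of all genes tested was -1.01, a shift of -1.16 from TPM. On this scale 1 lncRNA, Gm2682, was called higher (0.181% of all genes) and 25 lower (64.5% of all genes), and limma p-values there are too small because all genes share the spread of the list. As plain ratios per 1000 TPM of the list, each ENT1KO library lay above each WT library for 3 genes (0.536% of all genes tested), below for 25 (61.7% of all genes tested), and the ranges met for 70. The 3 were Gm2682, 4833403J16Rik and Gm33104.

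AW112010 had 115, 136, 117 and 104 TPM per 1000 TPM of the identity list in ENT1KO and 144, 146 and 111 in WT libraries, so its ranges met. Gm44174, beside Cd8a, had 22.6, 29.6, 31.5 and 22.4 in ENT1KO and 28.9, 27.6 and 29.3 in WT libraries, with the WT values inside the ENT1KO range. Gm2682 had 10.5, 5.55, 8.94 and 10.5 in ENT1KO and 5.23, 4.9 and 4.84 in WT libraries, with ENT1KO replicate 12 close to WT. Morrbid had 0.856, 0.6, 0.709 and 0.752 in ENT1KO and 3.38, 7.03 and 2.64 in WT libraries, further apart than on TPM. Division by a list that is higher in each ENT1KO library widens any fall by construction. Mir142hg had 1.79, 2.09, 1.53 and 1.34 in ENT1KO and 1.98, 1.72 and 0.82 in WT libraries, overlapping ranges.

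**Figure D4:**
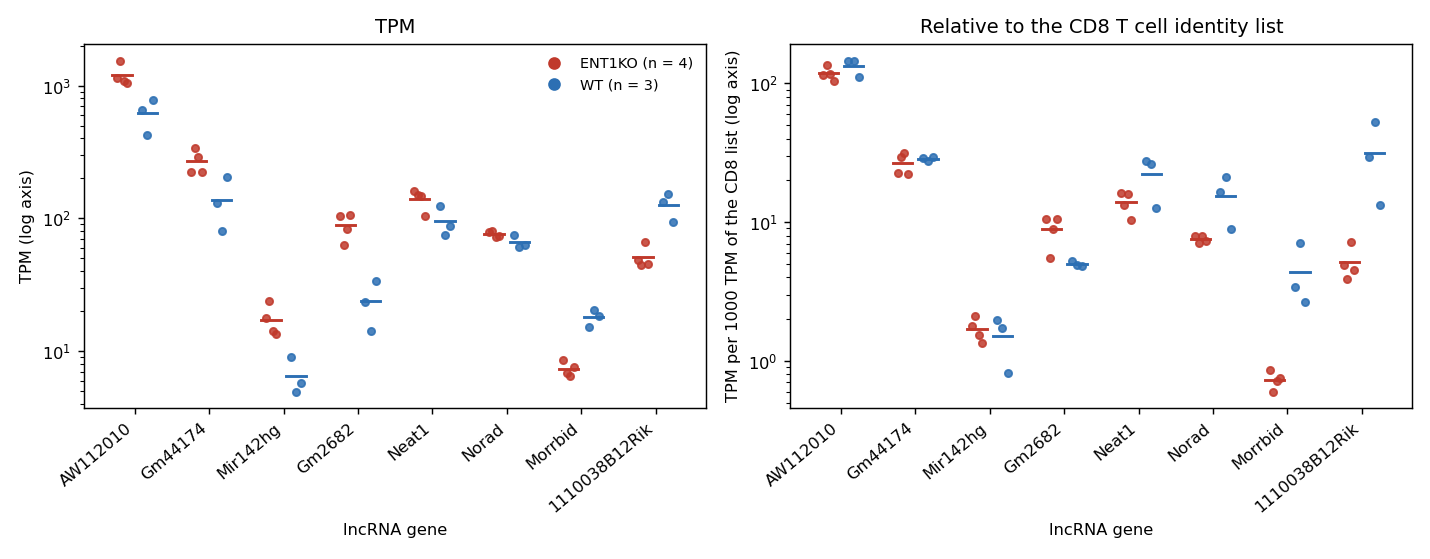
8 lncRNAs in TPM (left panel, log axis) and in TPM per 1000 TPM of the CD8 T cell identity list (right panel, log axis). Points are libraries, ENT1KO (n = 4) left of WT (n = 3), and lines are means. The gap between genotypes seen on TPM for AW112010, Gm44174 and Mir142hg closes in the right panel, that of Gm2682 narrows, and those of Morrbid and 1110038B12Rik widen. The list is higher in each ENT1KO library, so falls widen by construction.

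Of 14 T cell activation and effector transcription genes, 7 rose and 2 fell, with a median of 0.50, and relative to the CD8 identity list 7 were called lower. Of all genes, 27.5% were higher, 23.1% lower and 64.5% lower relative to that list. Stat5b, which carries cytokine signals, averaged 46.5 ± 3.7 TPM in ENT1KO and 28.7 ± 5.69 TPM in WT (difference 0.69, limma adjusted p = 0.00611). Egr1, an early gene of receptor signalling that other cells express too, averaged 71.5 ± 20.6 TPM in ENT1KO and 244 ± 104 TPM in WT (difference -1.71, limma adjusted p = 0.00426). The count of rises was 4 to 8 when 1 library was left out, and 4 without WT replicate 2. The count of falls was 1 without ENT1KO replicate 11 or 15 or WT replicate 1 or 2.

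The deposited scales were then compared, since TPM and the normalized counts of the authors assign reads in different ways. Of the 91 lncRNAs with a mean normalized count of at least 20, 84 had differences on both scales within 0.3 of each other and 3 had opposite signs. On normalized counts limma called 55 of the 98 higher (21% of all genes) and 8 lower (28% of all genes), where the all-gene median lay -0.145 from that on TPM, and the authors' deposited table has 57 higher (16.5% of all genes) and 8 lower (25.8% of all genes) among the 92 with an adjusted p. Gm20186 rose by 1.24 on TPM and by 0.48 on normalized counts, where it did not pass. 10 of the 98 had fewer than 0.1 times the median number of reads per TPM and kilobase of transcript, where 5.28% of all genes did, Gm10076, Gm28037, Bc1 and Gm42031 among them. Without these 10, which include 3 of the 7 falls, 4 lncRNAs were called lower.

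**Figure D5:**
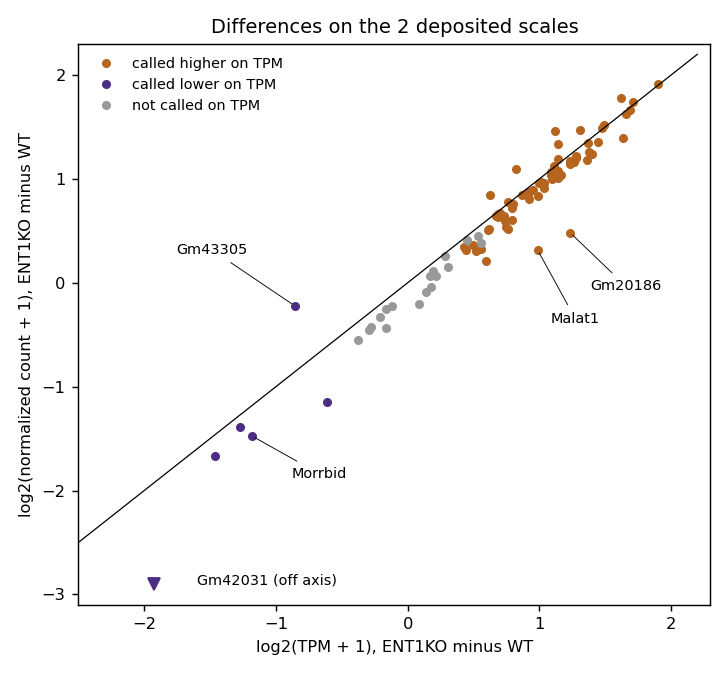
Difference of each lncRNA with a mean normalized count of at least 20 on log2(TPM + 1) (x axis) and on log2(normalized count + 1) (y axis), both ENT1KO minus WT, coloured by the call on TPM. The line marks equal values, and Gm42031, listed at 0 in each ENT1KO library, lies below the y axis range at the triangle. Malat1 and Gm20186 lie below the line and Gm43305 above it.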

How the data were processed

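The members and gene lists were chosen with earlier results of these data known. Per the labels' protocols, RNA from sorted cells (75 ng) went through poly(A) selection and KAPA RNA Hyperprep libraries. Per the submitters' processing notes, Trimmomatic 0.35 and 0.38, STAR 2.7.1a, RSEM, DESeq and DESeq2 1.30.1 were used with GRCm39, with no roles given. Of the 2 deposited tables, one holds TPM per gene and sample. The other, the authors' comparison, holds per-sample normalized counts (a signal divided by size factors), log2 fold changes and group means, a test statistic (a score), and p-values. TPM columns each sum to 1000000 and so keep no depth. The normalized counts of each library were whole multiples of 1 step (100% of values within 0.01 of a whole number), from which the reads per library were taken. No count test was run here. Precision is lowest for the members with few reads.

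Here genes at 1 TPM or more in 3 or more of the 7 samples were tested with limma 3.58.1 (R 4.3.3, trend and robust) on log2(TPM + 1), fitting genotype alone, with p-values adjusted over 13798 genes by Benjamini and Hochberg's method and called at 0.05. Folds on this scale understate low genes. Single sums were compared by exact permutation. Python 3.11.15, pandas 2.3.3 and matplotlib 3.10.9 made tables and figures. The limma fit of genotype alone was also tested on simulated data, and the alternative limma fits were not. Lists (15, of 184 genes) were 10 of cell types and 5 of partner genes. Strand came from GENCODE M21 by gene ID, and sequences from RefSeq on GRCm38.p6, whose positions are not those of the table.

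Named genes were Slc29a1, the 12 members with the highest mean TPM, the 8 named members and the 3 numbered models or clones with the largest and the smallest difference among those called, microRNA hosts, and the 2 genes with the smallest p of each partner list, of which 1 gene is not reported here. Neighbours, pairs beside other genes, Norad, Neat1, Pvt1, Gm43305, Gm46620, Gm20186, AA465934 and Nono were added after their values were seen. Alternatives covered the pseudocount, the filter, the normalization, scaling to the CD8 identity list, list levels as covariates, limma's variance model, the authors' table, the member threshold and each left-out library.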

Additional observations from a re-analysis of the deposited data

Results flagged for a closer look

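AI662270 was the only gene among the 40 groups of 4 samples checked (1 for each named gene) whose outermost ENT1KO library stood apart from the rest. Its 4 ENT1KO libraries held 183, 195, 193 and 194 TPM, and the gap of replicate 11 to the nearest other library was 0.846 of the group's range, above Dixon's critical value for 4 samples. Chance flags 5% of groups. The WT libraries held 117, 91.2 and 133 TPM, all below replicate 11.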

How the results depend on the processing

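No paired analysis was possible because the genotypes share no replicate numbers. The count of lncRNAs called higher (68) was 45 to 61 with 1 library left out, lowest without WT replicate 2, and 39 without 2 libraries (ENT1KO replicate 14 and WT replicate 2). The count called lower (7) was 6 to 8 and the median (0.78) 0.67 to 0.88. Over all genes with 1 library left out, 2232 to 3684 were higher and 1975 to 3142 lower, beside 3800 and 3182 of 13798 with 7 libraries. The authors' deposited table calls 3113 higher and 4877 lower among 18878 genes with an adjusted p, a different set of genes. With the fibroblast and tumour covariate in limma, 0 lncRNAs were higher and 0 lower (7 and 3 at an unadjusted p under 0.05, beside 1140 of all 13798 genes in either direction), and over all genes 0 and 0, with a median of 0.51. With the macrophage covariate 0 and 0 (13 and 3 at an unadjusted p under 0.05, beside 1335 of all 13798 genes in either direction), over all genes 2 and 2, with a median of 0.55. The genotypes do not overlap on these lists, so genotype and list level cannot be told apart. Chosen after seeing the data, a member threshold of 5 TPM gave 117 higher and 12 lower, one of 20 TPM gave 35 higher, and leaving out members with few reads per TPM gave 4 lower. Another threshold also changes the number of members, which is not given here for 5 or 20 TPM. The counts at those thresholds thus cannot be set against 68 as a change in the result. With the CD8 identity list subtracted, 1 lncRNA was higher and 25 lower, and the median was -0.38. Over all genes 25 were higher and 8894 lower, and the median was -1.01. There these turned negative: Gm10076 -0.98, AW112010 -0.17, Gm28037 -1.03, Malat1 -0.17, Gm44174 -0.12, Zfas1 -0.64, AI662270 -0.40, AU020206 -0.24, Gm19585 -0.42, Chaserr -0.0467, Rab26os -0.24, Rab10os -0.41, Peg13 -0.43, Oip5os1 -0.54, Epb41l4aos -0.54, Dleu2 -0.57, Lockd -0.71, Taf15 -0.45, Sf3b1 -0.0341, Srsf5 -0.31, Tnrc6a -0.17 and Stat5b -0.47. Subtracting the list moves all genes together by construction, and for the other changes the cause was not tested. Gm10076 also turned with quantile normalization (-0.0836), normalized counts (-0.0395) and the authors' deposited table (-0.0325), Gm28037 with quantile normalization (-0.0377), the fibroblast covariate (-0.10) and without WT replicate 2 (-0.0299, and up to 0.23 with 1 other library left out), and Mir22hg with the fibroblast (0.45) and macrophage (0.57) covariates. With no filter on low values 56 were higher. The pseudocounts, the 5 TPM filter and quantile normalization gave 65 to 69 higher.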
